A study of Mus musculus with 6 samples.

Results

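The 40 genes described here encode the machinery of DNA replication and its supply of nucleotides, from the licensing of origins to the copying of chromatin marks. They were taken as a named list (Mcm2 to Mcm7, Mcm10, Cdc6, Cdt1, Cdc45, Gins1 to Gins4, the polymerase, primase, clamp and clamp loader genes, Tyms, Rrm1, Rrm2, Lig1, Fen1, Rpa1, Rpa2, Chaf1a, Chaf1b, Uhrf1, Dnmt1, Ccne1, Ccne2 and E2f1). All 40 were found among the 33084 genes of the count table, and all 40 were among the 19616 genes that passed the filter on low counts. RNA was sequenced from the microdissected forebrain of 6 mouse embryos at embryonic day 15.5, with 3 wild-type libraries, called controls here, and 3 libraries of mutants, labelled Dyrk1a<DlxCre/+>. Dyrk1a encodes a kinase that promotes cell cycle exit. In these mutants it is inactivated conditionally in the Dlx5 domain, the territory of developing GABAergic neurons of the ventral forebrain. The + in the label stands for a wild-type allele, so the mutants are read as heterozygous. Whole forebrain was taken, so each library mixes cells of that domain with cells outside it. No strain, litter, date or batch is stated for the embryos, so p-values measure the spread between these libraries. Whether the controls carry the Cre driver or the conditional allele is not stated either.

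As background, a cell prepares to replicate in G1, when CDC6 and CDT1 load the MCM helicase onto origins. CDC45 and the GINS complex then activate that helicase, and polymerases, primase, the sliding clamp PCNA and its loader copy the DNA during S phase. In the embryonic forebrain this happens in the progenitors that line the ventricles, while the neurons they produce have left the cycle. Many of these genes are switched on at the G1/S boundary by E2F transcription factors, and DYRK1A can hold cells out of the cycle by phosphorylating cyclin D and a subunit of the DREAM complex, which represses cell cycle genes.

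E2F sites were therefore looked for in the promoters of the list. RefSeq promoter windows on GRCm38.p6, each running from 250 bases before to 50 bases after a transcription start, were at hand for 32 of the 40 genes, in 39 windows. An E2F match, meaning TTTCCCGC, TTTGGCGC, TTTCGCGC or TTTGCCGC on either strand, was found in 13 of these 39 windows (33.3%), belonging to 13 genes. Over all 32851 windows of the same length 2.26% held such a match. The 10 stretches that follow show one match each for the licensing genes that had one and for Rfc3, Pola1, Uhrf1 and Dnmt1, read 5′ to 3′ along the gene's strand with the match in capitals; capitals that begin with GCG are matches on the opposite strand.
Cdc6: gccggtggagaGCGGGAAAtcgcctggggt
Cdt1: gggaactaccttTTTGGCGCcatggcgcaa
Mcm3: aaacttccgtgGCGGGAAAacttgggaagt
Mcm5: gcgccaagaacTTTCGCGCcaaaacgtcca
Mcm6: gattggacgggTTTGGCGCgaagtagctca
Mcm7: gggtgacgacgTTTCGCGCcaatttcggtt
Rfc3: acgtcgcacgcTTTCGCGCtcgcgggaaaa
Pola1: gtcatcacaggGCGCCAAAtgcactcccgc
Uhrf1: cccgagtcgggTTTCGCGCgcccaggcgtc
Dnmt1: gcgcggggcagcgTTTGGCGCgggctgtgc

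These 13 genes held 20 E2F matches in all, 11 of which began within 100 bases before the start or in the 50 bases after it. The stretch of Mcm7 lay at chr5:138171849-138171878, with the match beginning 16 bases after the start, and that of Mcm6 at chr1:128359734-128359763. The stretches of Mcm3 and Mcm5 lay at chr1:20820275-20820304 and chr8:75109345-75109374, and those of Cdc6 and Cdt1 at chr11:98908002-98908031 and chr8:122568035-122568064. Rfc3 had its stretch at chr5:151651200-151651229, Pola1 at chrX:93632275-93632304, Uhrf1 at chr17:56304117-56304146 and Dnmt1 at chr9:20952574-20952603. Cdc6, Cdt1, Mcm5 and Uhrf1 are read on the forward strand and the other 6 on the reverse strand. Mcm6 had 3 matches in its window, and Mcm3, Mcm5, Mcm7, Rfc3 and Dnmt1 had 2 each. Of the 20 matches, 4 shared bases with another E2F match and 1 with a CCAAT box. CCAAT, on either strand, was in 59.0% of the members' windows against 37.4% of all windows, and the GC box GGGCGG in 69.2% against 35.7%. The cell cycle homology region TTTGAA was in 12.8% against 17.9%. The members' windows had a median GC content of 61.3% and all windows 52.7%, which bears on every motif rich in G and C. A match describes letters and is not a measured binding site.

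Library totals ran from 24646616 to 38315004 counts, and the 40 genes together took between 0.185% and 0.273% of them. The first principal component, with 37.4% of the variance, set both replicate 3 libraries apart from the other 4 whatever their genotype. Of the forebrain markers, Emx1 ran from 21.8 to 39.3 CPM (counts per 1000000, with library sizes scaled by TMM), Lhx2 from 79.2 to 134 CPM and Dlx2 from 12.4 to 21.04 CPM over the 6 libraries. Each of these was lowest in control replicate 1. The 10 forebrain markers summed to 268 CPM in that library and to between 328 and 393 CPM in the others. All 10 had a log2 fold change above 0, mutant over control, against 47.5% of all tested genes, and 0 were called. Midbrain and hindbrain markers summed to between 5.90 and 12.6 CPM over 7 genes, 2 of which had no count in any library. Most of that sum was Gbx2, at 5.42 to 12.3 CPM, the only 1 of the 7 to pass the filter on low counts. The sum therefore rests on 1 gene. It was highest in the replicate 3 libraries, at 11.8 CPM in the control and 12.6 CPM in the mutant. Dyrk1a itself stood at 169, 183 and 180 CPM in the controls and at 186, 159 and 182 CPM in the mutants. Its log2 fold change was -0.02 ± 0.09 (SE), and since its count covers the whole gene it does not check the deletion.

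Replication genes did not separate the genotypes in this tissue. In edgeR's quasi-likelihood fit, with p-values adjusted by Benjamini-Hochberg over all tested genes, 0 of the 40 passed an adjusted p of 0.05 (adjusted p = 0.9999 for each), where 0% of all tested genes passed. At an unadjusted p under 0.05 there were also 0 of the 40, against 1.92% of all genes. DESeq2 called 0 of the 40 and had 0 under an unadjusted p of 0.05, where 0.94% of its genes were. The fit of limma-voom with sample weights called 0 of the 40 and had 1 under that unadjusted p (Cdt1), where 9.71% of all genes were. In none of the 40 did the 3 mutant libraries lie entirely above or entirely below the 3 controls, while 6.89% of all tested genes had such separated groups. Log2 fold changes, mutant over control, ran from -0.09 to 0.24, with 29 above 0 and 11 below and a median of 0.03. Over all tested genes 47.5% lay above 0 and the median was -0.01.

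That count of 29 depended on which libraries were in the fit. Leaving out control replicate 1 gave 17 and leaving out control replicate 2 gave 11. There were 40 above 0 when control replicate 3 was left out, and 4 when mutant replicate 3 was. Leaving out mutant replicate 1 or mutant replicate 2 gave 39 each. Over these 6 fits the median of the 40 ran from -0.14 to 0.25. Of all tested genes, 47.6%, 48.1% and 50.4% lay above 0 without control replicates 1, 2 and 3, and 48.7%, 49.9% and 48.4% without mutant replicates 1, 2 and 3. With both replicate 3 libraries left out, 32 of the 40 lay above 0, with a median of 0.07, against 50.1% of all genes. At an unadjusted p under 0.05 that fit of replicates 1 and 2 had 2 of the 40 (Cdt1 and Pold1), against 7.86% of all genes. A fit with the replicate number as a block had 1 (Pold1), against 3.9%. Without control replicate 3 there were 3 of the 40, against 5.33%. The other 5 fits without 1 library had 0 of the 40, against 0.902% and 1.59% of all genes without control replicates 1 and 2, and 1.53%, 1.23% and 3.44% without mutant replicates 1, 2 and 3.

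**Figure D1:**
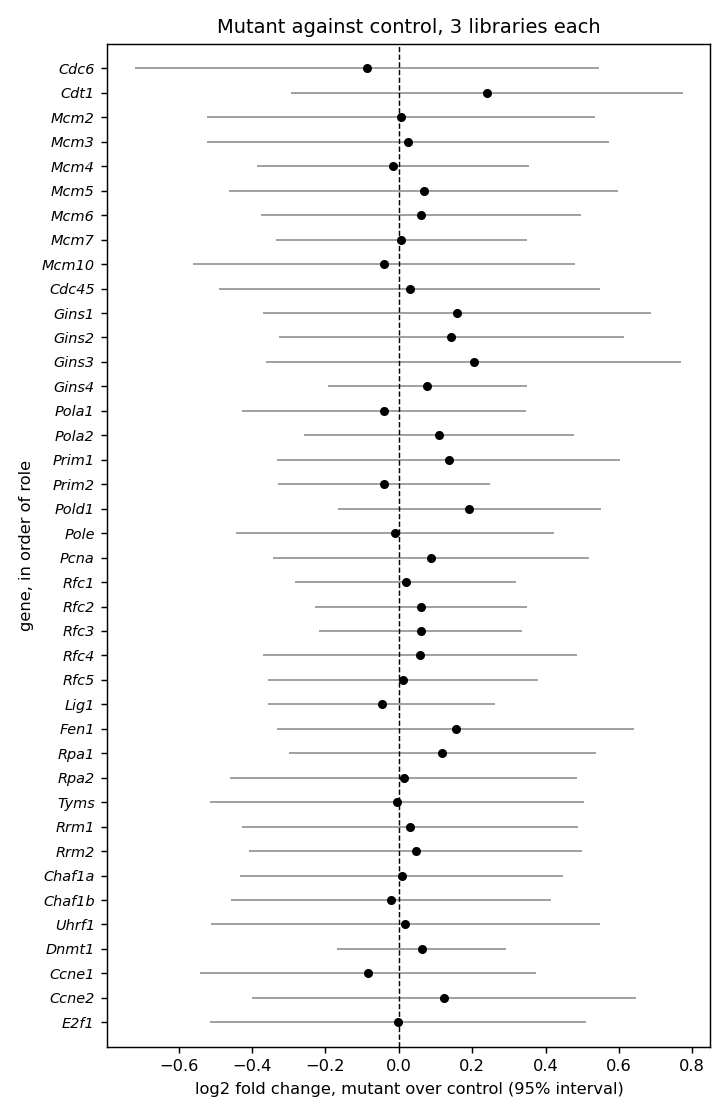
Log2 fold change of each of the 40 replication genes, mutant over control, on the x axis, with genes on the y axis in order of their role; points are edgeR estimates from 3 control and 3 mutant libraries and lines their 95% intervals. All 40 intervals cross 0, with point estimates between -0.09 and 0.24.

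The precision of these values varied from gene to gene. Standard errors ran from 0.10 for Dnmt1 to 0.28 for Cdc6 on the log2 scale, and all 40 95% intervals included 0. The lowest bound was -0.72, for Cdc6, and the highest 0.77, for Cdt1. For Dnmt1 the interval was narrower, from -0.17 to 0.29. Counts per library were between 147 (Cdt1 in control replicate 2) and 11638 (Dnmt1 in control replicate 3).

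What these genes did share was their order across libraries. In all 40, both replicate 3 libraries, 1 control and 1 mutant, stood above each of the other 4 libraries; 17.3% of all tested genes did so, and 17.1% had both replicate 3 libraries below the other 4, as 0 of the 40 did. Mutant replicate 3 was the highest library for 22 genes and control replicate 3 for 18. Control replicate 2 was the lowest for 30 genes, control replicate 1 for 5, mutant replicate 2 for 4 and mutant replicate 1 for 1. Relative to replicates 1 and 2 of the same genotype, replicate 3 was higher by a median of 0.56 log2 units in controls and 0.51 in mutants, where the medians over all tested genes were 0.01 and 0.01. No label sets replicate 3 apart, and the split was noticed in these data, so it is described without a test.

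**Figure D2:**
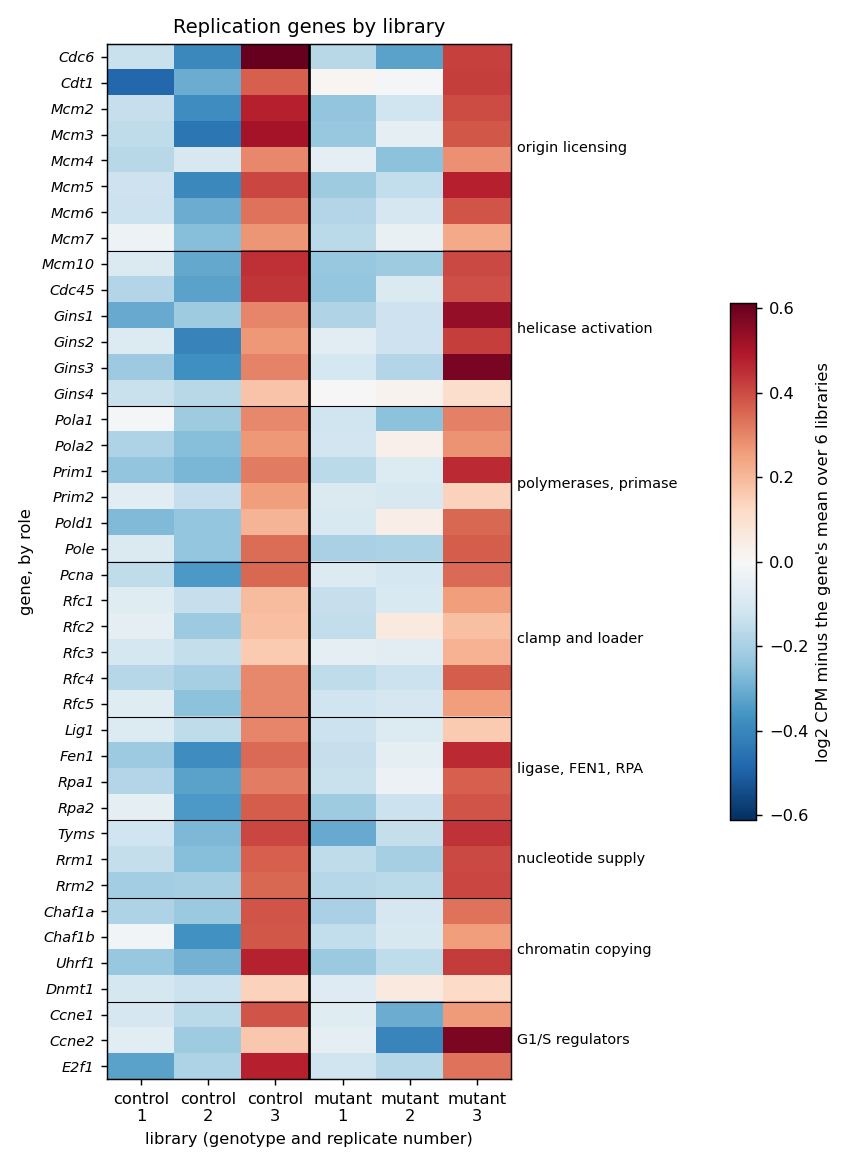
Heat map of the 40 replication genes (rows, grouped by role) in the 6 libraries (columns, controls left of the line and mutants right); colour is log2 CPM minus the gene's mean over the 6 libraries. Every row is red in both replicate 3 columns, and control replicate 2 is the lowest column for 30 of the 40 genes.

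Summed over the 40 genes, the level was 2014, 1847 and 2739 CPM in control replicates 1, 2 and 3, and 1981, 2064 and 2743 CPM in the mutants. The replicate 3 sums were close across genotype, with the mutant at 1.00 times the control, and control replicate 2 was the lowest library. Controls averaged 2200.0 ± 474 CPM, and the mutant mean was 2263 ± 418 CPM (SD, 3 libraries each), a difference smaller than the spread within either group. In bulk tissue, fewer cycling cells and less of each RNA per cycling cell cannot be told apart.

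Other gene lists differed in replicate 3 as well. Genes of a G2/M list, such as Mki67, Top2a and Cdk1, summed to 1524, 1425 and 2458 CPM in controls and 1529, 1548 and 2586 CPM in mutants. Of these genes, 20 of 20 had both replicate 3 libraries above the other 4. Their replicate 3 level was 1.67 times that of replicates 1 and 2 in controls and 1.68 times in mutants, against 1.42 and 1.36 times for the replication genes. Neural progenitor markers (Pax6, Sox2, Nes and others) summed to between 1218 and 1415 CPM in replicates 1 and 2 and to 1589 and 1631 CPM in replicate 3, but only 7 of the 12 had both replicate 3 libraries above the other 4, and 1, Slc1a3, had both below. Sox2, a transcription factor of neural progenitors, stood at 58.9, 71.1 and 66.1 CPM in controls and at 76.6, 72.4 and 110 CPM in mutants. Its control replicate 3 was not the highest control, and all 3 mutants lay above all 3 controls. Of all tested genes, 6.89% had separated groups in either direction. The log2 fold change of Sox2 was 0.40 ± 0.16 (SE; unadjusted p = 0.0329, adjusted p = 0.9999, edgeR with Benjamini-Hochberg adjustment), so it did not pass. Markers of postmitotic neurons went the other way, from 6000.2 to 6428 CPM in replicates 1 and 2 and at 5462 and 5554 CPM in replicate 3, with 8 of 12 genes lowest in those 2 libraries. Oligodendrocyte precursor markers summed to between 102 and 113 CPM in the former and to 80.2 and 78.8 CPM in the latter.

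Markers of erythroid, endothelial, microglial, mural, meningeal and choroid plexus cells were also checked. Of 10 erythroid genes, 5 had both replicate 3 libraries above the other 4 and 4 below; the embryonic globin Hbb-y stood at 321 and 322 CPM in replicate 3 and between 27.8 and 42.5 CPM elsewhere. The erythroid list summed to 757 and 836 CPM in replicate 3 and to between 602 and 672 CPM in the other 4. Hbb-y was not alone among embryonic globins. Hba-x stood at 13.9 and 11.6 CPM in replicate 3 and between 3.27 and 4.22 CPM elsewhere. Hbb-bh1, a low gene, had 2.00 and 1.55 CPM against 0.210 to 0.492 CPM. Without Hbb-y the order of the sum turned, to 436 and 514 CPM in replicate 3 and between 560 and 631 CPM elsewhere. The adult globin Hbb-bs stood in replicate 3 at 0.67 times its level in replicates 1 and 2 in controls and 0.75 times in mutants. For Hba-a1 these ratios were 0.82 and 0.86, for Hba-a2 0.80 and 0.80, and for Hbb-bt 0.84 and 1.00. Endothelial markers ran from 219 to 242 CPM with replicate 3 inside that range. The sums of the remaining 3 lists were lowest in both replicate 3 libraries, as those of the neuron and oligodendrocyte precursor markers were. Microglial markers summed to 38.8 and 38.4 CPM there and to between 43.8 and 49.7 CPM elsewhere. Mural and meningeal markers summed to 278 and 297 CPM against 336 to 422 CPM, the highest being control replicate 1. Choroid plexus markers summed to 280 and 293 CPM against 331 to 437 CPM. Gene by gene, both replicate 3 libraries were below the other 4 in 2 of 6 microglial genes. The same held for 4 of 6 mural and meningeal genes and 2 of 5 choroid plexus genes. Ttr alone held 247 and 261 CPM of the choroid plexus sums in replicate 3. Besides Sox2, the marker genes whose mutant libraries all lay above the controls were Hbb-bt, Tek, Dcn and Kcne2. Their log2 fold changes were 0.13, 0.12, 0.17 and 0.14, with unadjusted p of 0.202, 0.260, 0.126 and 0.326 (edgeR). Over all tested genes, 6.89% had separated groups in either direction. The part of any of these cell types in the level of the replication genes was not tested.

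**Figure D3:**
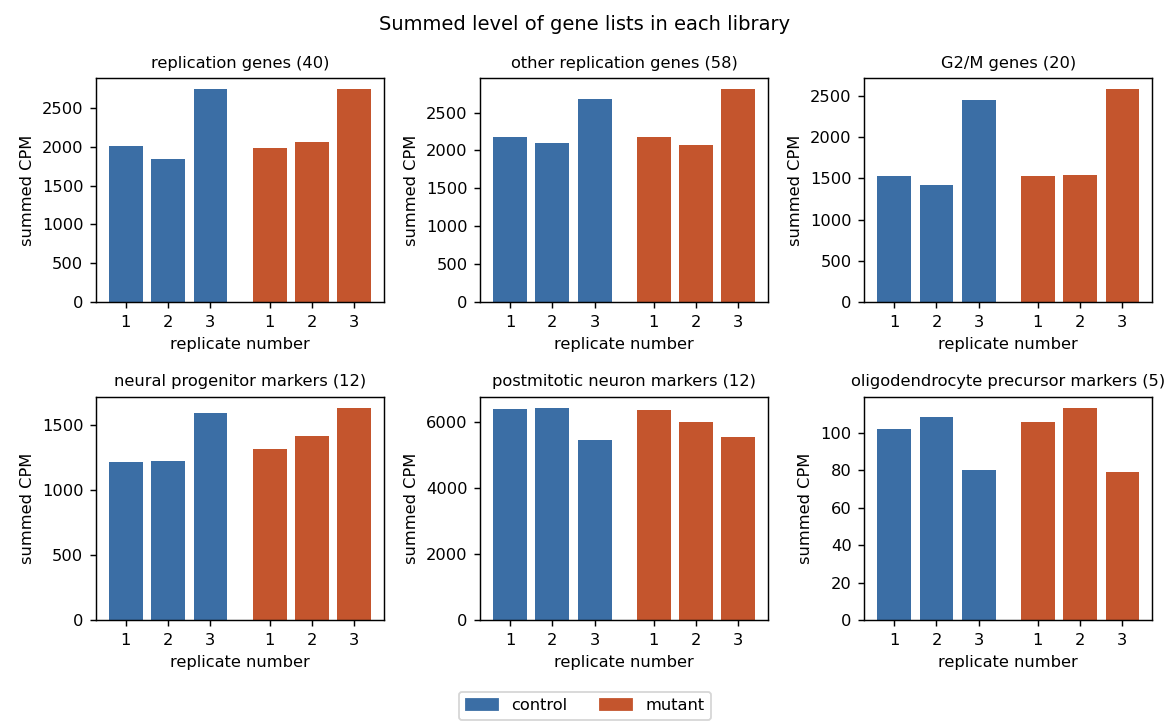
Summed CPM (y axis, from 0) of 6 gene lists in each library (x axis, replicate number; blue bars are controls and orange bars mutants; the number of genes is in each panel title). Both replication lists, the G2/M list and the progenitor list are highest in both replicate 3 libraries, and the neuron and oligodendrocyte precursor lists are lowest there.

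Origin licensing genes varied unequally between libraries, with the highest library at 2.01 times the lowest for Cdc6 and at 1.45 times for Mcm7, where the median of the 40 was 1.61 times. Cdc6 (ENSMUSG00000017499, GRCm38 chr11:98907801-98923940, forward strand), the loader that recruits CDT1 and the helicase to origins, stood at 13.4, 11.2 and 22.5 CPM in controls and at 13.1, 11.7 and 19.7 CPM in mutants. Both replicate 3 values were high and the groups overlapped. Its replicate 3 level was 1.83 times that of replicates 1 and 2 in controls and 1.59 times in mutants, the former the largest such ratio of the 40. The genotype difference was -0.09 ± 0.28 (log2, SE; unadjusted p = 0.762, edgeR), one of the 3 smallest p among members below 0.

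Cdt1 (ENSMUSG00000006585, chr8:122568015-122573554, forward strand), whose protein is destroyed in S phase to prevent a second round of licensing, had 5.27, 5.96 and 9.46 CPM in controls and 7.42, 7.28 and 9.85 CPM in mutants. The pair of mutant libraries of replicates 1 and 2 lay above their control counterparts, while the replicate 3 values were close. Its log2 fold change of 0.24 ± 0.24 was the largest of the 40 (unadjusted p = 0.334, edgeR). It was 0.40 with replicates 1 and 2 alone, 0.55 without control replicate 3, 0.43 by limma-voom with sample weights, 0.08 without control replicate 1, 0.15 without control replicate 2 and 0.09 without mutant replicate 3. None of these passed (smallest adjusted p = 0.470, in limma-voom with sample weights).

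The 6 genes of the MCM helicase ring itself, Mcm2 to Mcm7, differed less between genotypes, with log2 fold changes between -0.02 (Mcm4) and 0.07 (Mcm5). Mcm7 (ENSMUSG00000029730, chr5:138164583-138172422, reverse strand) was the most abundant member of the whole list per length, at 40.2 CPM per kilobase of annotated exon. Its libraries held 172, 147 and 213 CPM in controls and 157, 171 and 207 CPM in mutants, with means of 177 ± 33.3 and 178 ± 25.6 (SD, 3 libraries per genotype). Mcm2 held 90.8, 77.0 and 139 CPM and 84.7, 92.0 and 132 CPM. Replicate 3 was high in both genes and the genotypes overlapped. Per kilobase of exon, Mcm7 was the highest subunit in 6 of 6 libraries and stood at 2.62 to 3.13 times the lowest, which was Mcm4 in 4 libraries and Mcm2 in the other 2. With the length of the principal transcript instead, Mcm4 was lowest in all 6 and the ratio ran from 3.62 to 4.68. Mcm7 overlaps Ap4m1 and Cops6 on the opposite strand, and whether its counts were split by strand is not stated.

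The genes that turn the loaded helicase into a moving fork, Mcm10, Cdc45 and the GINS subunits, had a median log2 fold change of 0.11, with 5 of 6 above 0 and none past the threshold. Without mutant replicate 3, 1 of the 6 was above 0, and without control replicate 2, 3 were. Gins3 (ENSMUSG00000031669, chr8:95633453-95645060, forward strand) had 6.71, 6.04 and 9.67 CPM in controls and 7.28, 6.93 and 11.7 CPM in mutants. Mutant replicate 3 was the highest library and the groups overlapped. Its log2 fold change was 0.20 ± 0.25 (unadjusted p = 0.434, edgeR), and between -0.08 without mutant replicate 3 and 0.45 without control replicate 3. Gins4 (ENSMUSG00000031546, chr8:23226616-23237659, reverse strand), the most abundant gene of this class per length at 16.7 CPM per kilobase, varied far less. Controls held 20.4, 19.9 and 25.4 CPM and mutants 22.5, 22.8 and 24.2 CPM. In the mutants its replicate 3 level was 1.07 times that of replicates 1 and 2, the smallest ratio among the 40 genes, and in controls 1.26 times. The 4 GINS subunits form 1 complex, yet Gins4 stood at 4.60 to 6.76 times the lowest subunit per kilobase of exon in the 6 libraries.

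Among polymerase and primase genes 3 of 6 lay above 0, from 1 without mutant replicate 3 to 6 without control replicate 3, mutant replicate 1 or mutant replicate 2. Pold1 (ENSMUSG00000038644, chr7:44532746-44548849, reverse strand), the catalytic subunit of the lagging-strand polymerase delta, had the smallest p of the 40. Its controls held 39.6, 40.5 and 55.1 CPM and its mutants 44.8, 49.0 and 60.9 CPM. Each mutant library was higher than the control of the same number, but control replicate 3 was above 2 of the 3 mutants. The log2 fold change was 0.19 ± 0.16 (unadjusted p = 0.256, edgeR), from 0.06 without mutant replicate 3 to 0.37 without control replicate 3. It was also 0.11 and 0.12 without control replicates 1 and 2, and 0.29 without mutant replicate 1. The polymerase alpha and primase genes Pola1, Pola2, Prim1 and Prim2 had -0.04, 0.11, 0.14 and -0.04, and Pole, the leading-strand polymerase gene, had -0.01.

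The sliding clamp and its loader gave 6 of 6 members above 0, all between 0.01 (Rfc5) and 0.09 (Pcna) and none past the threshold. Without mutant replicate 3, 0 of the 6 were above 0, without control replicate 2, 1 was, and without control replicate 1, 3 were; over all tested genes with all libraries the share was 47.5%. Pcna (ENSMUSG00000027342, chr2:132249162-132253314, reverse strand), the ring that tethers polymerases to DNA, had 66.6, 58.1 and 94.6 CPM in controls and 70.1, 68.9 and 94.3 CPM in mutants. The replicate 3 values were nearly equal and the genotypes overlapped. It was the third most abundant gene of the list, at 31.4 CPM per kilobase of exon, although Pcna has annotated pseudogenes whose reads may be counted with it or lost. The loader genes Rfc1, Rfc2 and Rfc3 were among the least variable, with replicate 3 at 1.23, 1.25 and 1.22 times replicates 1 and 2 in controls.

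Lig1 (ENSMUSG00000056394, chr7:13277283-13311433, forward strand), the ligase that seals Okazaki fragments, had 59.9, 57.0 and 78.1 CPM in controls and 58.0, 60.0 and 71.0 CPM in mutants. Only the replicate 3 libraries stood out, and its log2 fold change was -0.05 ± 0.14 (unadjusted p = 0.742, edgeR). Fen1, the flap nuclease that trims those fragments, had 0.16, and Rpa1 and Rpa2, which coat single-stranded DNA, had 0.12 and 0.01. Fen1 was one of the 3 genes, with Cdt1 and Pold1, that reached an unadjusted p under 0.05 when control replicate 3 was left out, where 5.33% of all genes did.

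Nucleotide supply genes were close between genotypes: Tyms, which makes thymidylate, had -0.00, and the ribonucleotide reductase genes Rrm1 and Rrm2 had 0.03 and 0.05. Rrm2 (ENSMUSG00000020649, chr12:24708241-24714146, forward strand), the subunit whose level limits the enzyme in S phase, had 49.6, 49.98 and 73.4 CPM in controls and 50.9, 51.3 and 76.5 CPM in mutants. Both replicate 3 libraries were high and the other 4 close to each other, a log2 difference of 0.56 in controls and 0.58 in mutants.

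Genes that copy chromatin behind the fork included the most abundant RNA by counts. Dnmt1 (ENSMUSG00000004099, chr9:20907209-20959888, reverse strand), the maintenance DNA methyltransferase, had 259, 255 and 307 CPM in controls and 263, 290 and 303 CPM in mutants, or 37.9 CPM per kilobase of exon. Its replicate 3 libraries were only 1.20 and 1.09 times replicates 1 and 2, the smallest ratio in controls. Uhrf1, which brings DNMT1 to hemimethylated DNA, differed more, at 82.5, 79.2 and 134 CPM in controls and 82.6, 87.0 and 130 CPM in mutants, or 1.66 and 1.54 times. Chaf1a and Chaf1b, subunits of the histone chaperone CAF-1, had log2 fold changes of 0.01 and -0.02.

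Of the G1/S regulators, E2f1 (ENSMUSG00000027490, chr2:154559407-154569892, reverse strand) was the most abundant per length at 5.87 CPM per kilobase. It had 14.4, 15.9 and 25.2 CPM in controls and 16.6, 16.1 and 22.8 CPM in mutants, with both replicate 3 libraries high and both genotypes averaging 18.5 CPM. Ccne1 (ENSMUSG00000002068, chr7:38097984-38107534, reverse strand), a cyclin that activates CDK2 at S phase entry, had 7.22, 6.93 and 10.1 CPM and 7.38, 6.30 and 9.29 CPM. Its log2 fold change of -0.08 ± 0.20 (unadjusted p = 0.685, edgeR) had the smallest p of the 11 genes below 0. Ccne2, its paralogue, was spread most in mutants, at 15.6, 12.3 and 24.2 CPM, against 15.5, 14.0 and 18.2 CPM in controls. Mutant replicate 3 was its highest library, 1.73 times the mean of mutant replicates 1 and 2, the largest such ratio among the 40 in mutants. The genotype difference of Ccne2 was 0.12 with all libraries and -0.19 without mutant replicate 3.

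**Figure D4:**
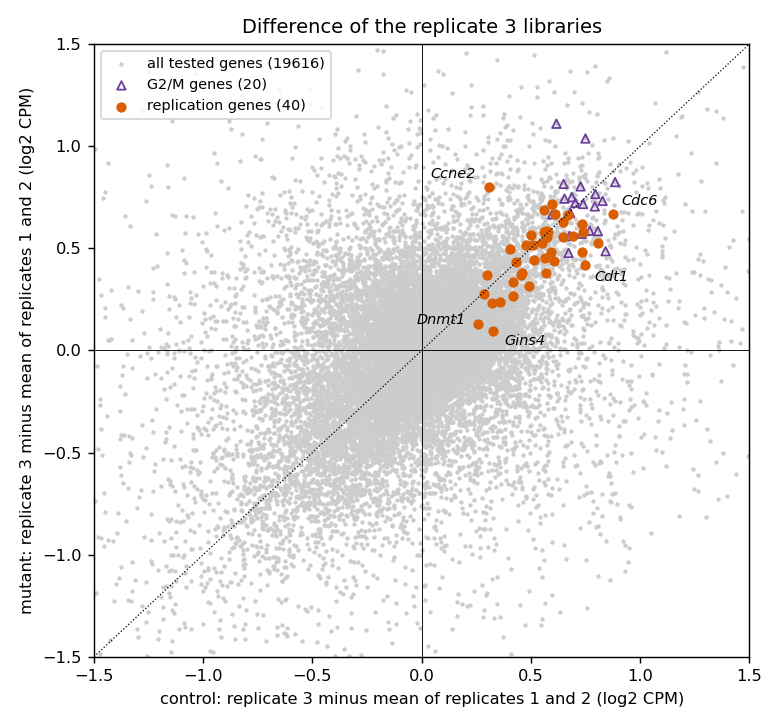
Difference of replicate 3 from the mean of replicates 1 and 2 (log2 CPM) in controls (x axis) and in mutants (y axis), for the 40 replication genes (orange), 20 G2/M genes (purple triangles) and all 19616 tested genes (grey, 212 of which lie outside the axes). All 40 replication genes lie above 0 on both axes, with Gins4 and Dnmt1 nearest to 0 in mutants and Cdc6 farthest in controls.

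The difference of replicate 3 varied in size among the 40 genes, from 1.20 times (Dnmt1) to 1.83 times (Cdc6) in controls and from 1.07 times (Gins4) to 1.73 times (Ccne2) in mutants. By class, the median difference in controls ran from 0.39 log2 units for the clamp and loader to 0.70 for the licensing genes. In mutants it ran from 0.37 for the clamp and loader to 0.59 for the helicase activation genes, with nucleotide supply at 0.58 and licensing at 0.53. For 27 of the 40 the difference was larger in controls than in mutants, as it was for 53.7% of all tested genes. The 13 genes with an E2F match in a promoter window had medians of 0.55 and 0.50, and the 19 with a window and no match 0.57 and 0.51, which were close. The 19 include E2f1, Pcna, Mcm2 and Ccne1. A window without these letters does not show that a gene lacks E2F control, which was not tested. Between genotypes, the median difference of the 40 was 0.07 within replicates 1 and 2 and 0.01 within replicate 3, where 1 library stands on each side.

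Other genes of the pathway were read from a second list of 58, made up of origin recognition, checkpoint, accessory polymerase, nucleotide and E2F family genes. None of the 58 passed the adjusted threshold, where 0% of all tested genes passed. At an unadjusted p under 0.05 by edgeR there were 0, against 1.92% of all genes. Log2 fold changes were above 0 for 37 and below for 21, with a median of 0.02, where 47.5% of all genes were above. Of the 58, 10 were above 0 without mutant replicate 3 and 53 without mutant replicate 2, against 48.4% and 49.9% of all genes. Without control replicates 1 and 2 there were 19 and 15, against 47.6% and 48.1%. The smallest p belonged to Mcm9, a helicase paralogue of DNA repair, at 10.7, 10.9 and 11.6 CPM in controls and 9.53, 8.94 and 9.77 CPM in mutants. All 3 mutants lay below all 3 controls, with a log2 fold change of -0.24 ± 0.12 (SE; unadjusted p = 0.0757, adjusted p = 0.9999, edgeR with Benjamini-Hochberg adjustment). In 3.7% of all tested genes the mutants lay below the controls in this way. E2f4, a repressor E2F of the DREAM complex, followed at -0.20 ± 0.11, then Rnaseh2c at 0.31 ± 0.19 and Pole4 at 0.12 ± 0.10. In 44 of the 58 both replicate 3 libraries were above the other 4, against 17.3% of all tested genes. The 14 exceptions included Orc3, Orc4 and Orc5, Mcm9, Mcmbp, E2f4, E2f5, Rb1 and Rbl2. The G2/M list had 0 of 20 past either threshold, against 0% and 1.92% of all tested genes. It had 19 above 0, against 47.5%, with a median of 0.07. Without mutant replicate 3 it had 0 above 0, against 48.4%. Without control replicates 1 and 2 it had 3 each, against 47.6% and 48.1%. Cdc20, Aurka, Ube2c and Ccnb1, which act in mitosis, had its smallest p, at 0.20 ± 0.24, -0.13 ± 0.24, 0.16 ± 0.30 and 0.14 ± 0.31 (SE).

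**Figure D5:**
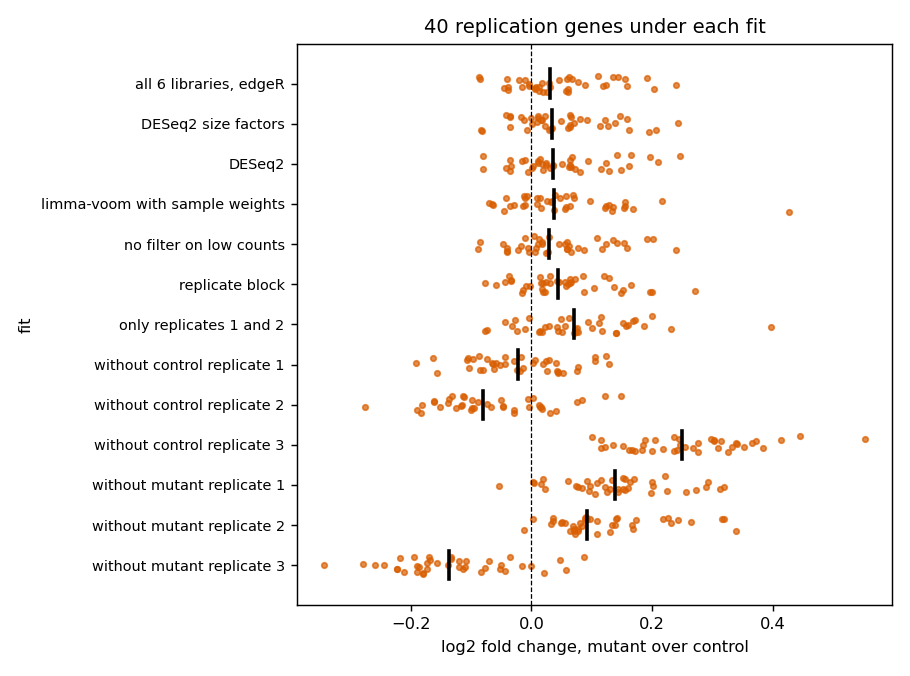
Log2 fold change, mutant over control (x axis), of the 40 replication genes (points) under each fit (y axis), with the median of each fit as a black bar. The points move together to the right without control replicate 3 (median 0.25) and to the left without mutant replicate 3 (median -0.14).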

How the data were processed

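RNA-seq libraries were made with a strand-specific total RNA kit after ribosomal RNA depletion and sequenced single-end, per the labels' protocols, which also name the molecule polyA RNA. Reads were demultiplexed (bcl2fastq 2.17.1.14), aligned to GRCm38 release 93 (HISAT2), indexed (SAMtools 1.9) and counted per gene (HTSeq 0.9.1), per the submitters' processing notes and the series' design; the strand setting is not given. That design names FCROS for differential expression, which was not used here. The authors deposited raw read counts per gene, 1 column per library. Symbols and positions came from GENCODE M21 (GRCm38), which matched 32888 identifiers. Genes were kept by filterByExpr (count minimum 10, total minimum 15), scaled by TMM and tested with edgeR 4.0.16 in R 4.3.3 (quasi-likelihood, robust, no covariate, Benjamini-Hochberg adjustment over all tested genes, threshold 0.05). Log2 CPM used a prior count of 2. DESeq2 1.42.0 and limma 3.58.1 served as alternatives. Per-kilobase levels divide CPM by the length of all annotated exons. Figures were drawn with matplotlib 3.10.9. On simulated counts for this comparison, with 19616 genes, 90.0% of genes changed 2-fold and 37.0% of those changed 1.5-fold were recovered. The changed genes were drawn from those with an average log2 CPM above 1. Each count was drawn independently, so the difference shared by the replicate 3 libraries was not simulated. Recovery for the 40 genes alone was not simulated either, and their median SE was 0.197, against 0.155 over all tested genes.

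The 40 genes, the other lists and the tests were chosen with earlier results of these data known, including that the replicate 3 libraries stood apart. Values in every library are given by rule for the most abundant gene of each class per length, the 3 smallest p per direction and any gene with separated groups, and, for the other replication genes and the G2/M list, the 4 smallest p are named; Mcm2, Uhrf1, Ccne2 and the marker genes with separated groups were added after their values were seen. The erythroid sum without Hbb-y and the counts per class with a library left out were also added after the data were seen. Of the 40, 10 overlap a tested gene on the opposite strand and 2 on their own strand.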

Additional observations from a re-analysis of the deposited data

How the results depend on the processing

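Whether a gene passed did not change for any of the 40: 0 were called in edgeR with TMM or with DESeq2 size factors, in DESeq2, in limma-voom with sample weights, with no filter on low counts, with the replicate block, with only replicates 1 and 2, or with any library left out. At an unadjusted p under 0.05 there was 1 gene with sample weights (Cdt1), where 9.71% of all genes were. There was 1 with the replicate block (Pold1), against 3.9% of all genes. With only replicates 1 and 2 there were 2 (Cdt1 and Pold1), against 7.86%. The fit of all 6 libraries had 0, against 1.92%. Leaving out 1 library gave from 0 to 3, where from 0.902% to 5.33% of all genes were. Over all genes, 3 passed with only replicates 1 and 2, none of them a replication gene, against 0 otherwise. Of the 40, from 4 (without mutant replicate 3) to 40 (without control replicate 3) lay above 0, and the signs of 25 and 11 changed in those fits; no such value was called. Per kilobase of principal transcript, chosen after the data were seen, Mcm7, Dnmt1 and Pcna stayed the top 3 and Uhrf1 moved from rank 4 to 7. Deviations from the group means correlated at 0.24, 0.07 and 0.36 across all genes for replicates 1, 2 and 3 of the 2 genotypes. Between libraries of different number the correlation was 0.35 for control replicate 2 with mutant replicate 1. The rest ran from -0.47 to 0.01. These values do not settle whether the numbers pair the embryos, and the main fit did not pair them. With the replicate block the median of the 40 was 0.04. With 3 embryos a group, differences under 1.5-fold were mostly not detectable.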
